A study of Homo sapiens with 27 samples.

Results

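The response of A431 cells to doxorubicin was set against the response of MDA-MB-231 cells to 5-fluorouracil (5-FU), gene by gene, in RNA sequencing libraries prepared after 48 h of treatment. The comparison used 12 of the 27 libraries of the series, in 4 groups of 3, namely untreated A431, doxorubicin-treated A431, untreated MDA-MB-231 and 5-FU-treated MDA-MB-231. A431 is an established human epidermoid carcinoma line and MDA-MB-231 an established human breast adenocarcinoma line, and both were grown in serum-supplemented medium. 5-FU was used at 10 µg/ml, whereas more than one dose of doxorubicin is listed without being assigned to libraries, so none is given here. Each group came from 1 cell line, the libraries were not described as separate cultures, and the p-values may therefore measure technical spread only. No line received the other's drug, so the drug and the cell line cannot be told apart in any contrast between the responses. Genes were compared where they passed the filter on low counts in both lines, which 13374 of the 24566 genes in the count table did (54.4%).

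Doxorubicin intercalates into DNA and traps topoisomerase II on broken DNA, while 5-FU is converted to nucleotides that block thymidylate synthase and enter RNA and DNA. Both drugs therefore disturb DNA synthesis, by different routes, and both are known to activate damage checkpoints. Among the programmes that damaged or stressed tumour cells can switch on are the p53 targets that stop the cell cycle, interferon-stimulated genes that answer nucleic acid in the cytoplasm, NF-kappa-B-driven cytokines, and the ATF4 programme that answers a shortage of amino acids. Glycolysis genes are controlled in part by hypoxia-inducible factor, sterol genes by SREBP2, and genes of DNA replication by E2F.

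Promoter sequences are shown for genes of the interferon, hypoxia and replication lists, which the comparison below turns on. They were taken from RefSeq (GRCh38.p14), which held the 250 bases before the start of 10793 of the 13374 genes. Each line gives a stretch on the strand of the gene, 5′ to 3′, with the motif in capitals on either strand. The first 3 are from interferon-stimulated genes, with the interferon-stimulated response element, searched as 2 copies of GAAA set 2 bases apart, on both strands. In ISG15 2 matches overlap.
IFIT1 (chr10:89392467-89392569, plus strand): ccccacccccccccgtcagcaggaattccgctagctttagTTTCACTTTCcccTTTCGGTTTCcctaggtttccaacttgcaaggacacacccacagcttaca
IFI6 (chr1:27672236-27672388, minus strand): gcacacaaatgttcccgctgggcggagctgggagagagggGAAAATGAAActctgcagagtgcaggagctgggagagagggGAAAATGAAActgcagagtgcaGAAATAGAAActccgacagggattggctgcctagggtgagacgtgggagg
ISG15 (chr1:1013344-1013443, plus strand): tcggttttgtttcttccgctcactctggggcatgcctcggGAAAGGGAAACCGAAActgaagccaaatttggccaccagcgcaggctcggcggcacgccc
The next 2 are from hypoxia-responsive genes, with the core ACGTG or GCGTG bound by hypoxia-inducible factor.
CA9 (chr9:35673870-35673927, plus strand): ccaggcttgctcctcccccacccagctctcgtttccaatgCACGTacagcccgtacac
PGK1 (chrX:78103998-78104109, plus strand): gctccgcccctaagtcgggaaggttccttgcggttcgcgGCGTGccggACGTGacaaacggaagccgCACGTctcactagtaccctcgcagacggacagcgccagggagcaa
The last is from MCM6, a subunit of the replicative helicase, with the E2F motifs TTTCGCGC and TTTGGCGC, which overlap there on opposite strands.
MCM6 (chr2:135876482-135876635, minus strand): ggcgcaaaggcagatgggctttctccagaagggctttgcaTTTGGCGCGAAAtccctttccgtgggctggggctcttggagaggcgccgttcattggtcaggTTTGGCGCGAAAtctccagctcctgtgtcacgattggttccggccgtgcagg
The interferon motif was found in 22 of 37 promoters of interferon-stimulated genes (59.5%) and in 251 of all 10793 promoters (2.33%). The hypoxia core was in 17 of 26 promoters of glycolysis and hypoxia genes (65.4%), close to its share of 57.1% over all promoters. The E2F motifs were in 5 of 35 promoters of DNA replication genes (14.3%) and in 1.70% of all promoters. Among genes that rose with both drugs, the interferon motif was in 6 of 247 promoters (2.43%).

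Total counts per library ranged from 17757206 to 22809339, and 3 counts were worth 0.132 to 0.169 CPM (counts scaled to a common library total), the scale of all levels below. One library stood apart. The counts of untreated MDA-MB-231 replicate 1 differed from those of replicates 2 and 3 by a chi-square per degree of freedom of 66.4 and 76.7, against 1.85 to 5.14 for the other pairs of replicates, and its deviation from the group correlated with GC content across genes at a rho of -0.614. Calls and counts that move most without it are given both ways beside the result, and its part in the others was not tested. The lines matched their labels. The summed level of 8 A431 markers was 8409.8 to 9245 CPM in untreated A431 and 389 to 517 CPM in untreated MDA-MB-231, and that of 8 MDA-MB-231 markers was 2048 to 2243 CPM and 5449 to 5792 CPM. EGFR, the amplified growth factor receptor of A431, stood at 1970.5, 1941 and 2039 CPM in A431 and at 225, 249 and 254 CPM in MDA-MB-231. Of the 7 markers of other cell types found in the table, HBB, the beta chain of haemoglobin, was at 0 in all untreated libraries, whereas PTPRC, a leukocyte surface phosphatase, was at 0.522, 0.229 and 0.342 CPM in untreated MDA-MB-231 and went from 0 counts in untreated A431 to 1.31, 1.59 and 1.19 CPM with doxorubicin. The summed level of the 7 was 22.7 to 29.9 CPM in untreated A431 and 47 to 52.1 CPM with doxorubicin, 8.71 to 19.3 CPM in untreated MDA-MB-231 and 17.1 to 23.8 CPM with 5-FU, and its part in the results was not tested.

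A second A431 control, labelled as vehicle, is part of the series, and no label says which drug the vehicle belongs to. With it in place of the untreated libraries, the number of genes that changed with doxorubicin was close, but cytokine and immediate early genes changed direction. Where a doxorubicin call stated for a gene below was lost or reversed, the value against vehicle is given with the gene. The cause was not tested.

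Doxorubicin gave the wider response. At an adjusted p under 0.05 and a log2 fold change beyond 1 in either direction (edgeR quasi-likelihood test, Benjamini-Hochberg adjustment), 2085 of the 13374 genes rose (15.6%) and 2062 fell (15.4%) with doxorubicin, while 750 rose (5.61%) and 934 fell (6.98%) with 5-FU. The standard deviation of the log2 fold changes over genes was 1.356 and 0.726, respectively. Across genes, which are not independent replicates, the log2 fold changes had a Pearson r of 0.201 and a Spearman rho of 0.247, and 7854 genes (58.7%) had the same sign. Both responses leaned towards lower values for GC-rich transcripts, with a rho against GC content of -0.121 for doxorubicin and -0.164 for 5-FU. Part of the rise with doxorubicin lay in genes close to silent before treatment: 713 of the 841 genes below 0.5 CPM in untreated A431 rose, against 182 of the 496 below 0.5 CPM in untreated MDA-MB-231. Such genes often pass the filter through the group in which they are high, so these counts describe the filter as well as the response. Outside the shared set, 1565 of the 2507 genes that passed the filter in A431 alone rose with doxorubicin. Counts are relative within a library, so fewer cells of one kind and less RNA per cell cannot be told apart.

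The balance of rises and falls depended on scaling. With TMM factors the median log2 fold change over all genes was -0.104 for doxorubicin and -0.004 for 5-FU, and with library size alone it was 0.239 and 0.126. The share of rises among the called genes was 50.3% for doxorubicin and 44.5% for 5-FU with TMM, and 72.2% and 60% with library size alone, and for doxorubicin it was 65.7% without the filter on low counts. Changes below are relative to the TMM scale, and a list whose median changes sign with library size alone is named as such.

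**Figure D1:**
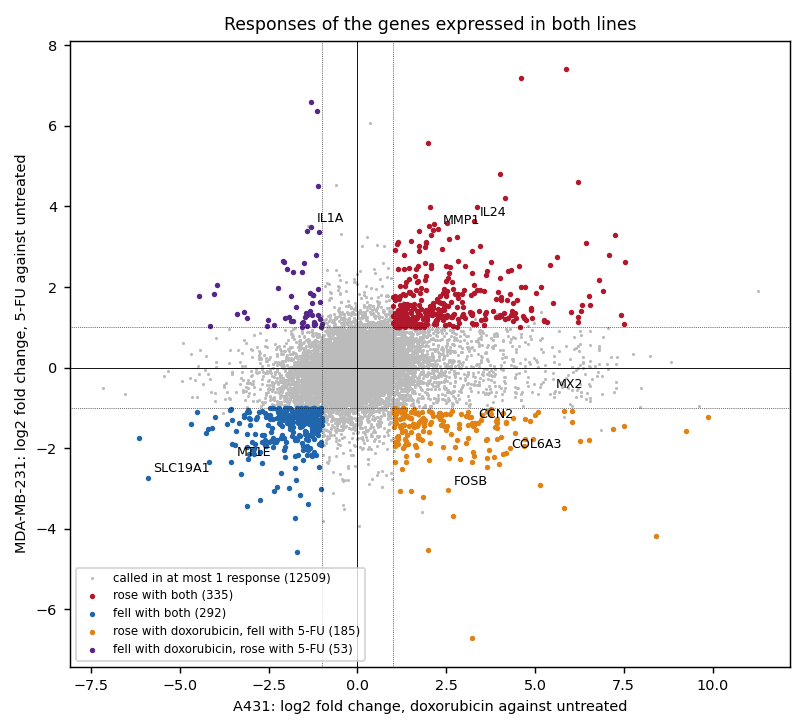
Log2 fold change of each of the 13374 genes with doxorubicin in A431 (x axis) and with 5-FU in MDA-MB-231 (y axis), each against untreated cells of the line. Dotted lines mark a log2 fold change of 1 in either direction, colours mark genes called in both responses, and the spread is wider along the x axis (SD 1.356) than along the y axis (SD 0.726).

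Shared changes outnumbered opposite ones. Of the genes that rose with doxorubicin 335 (16.1%) also rose with 5-FU, which is 44.7% of the genes that rose with 5-FU. Falls were shared by 292 genes, 14.2% of those for doxorubicin and 31.3% of those for 5-FU. By contrast, 185 genes rose with doxorubicin and fell with 5-FU, and 53 did the reverse. In 327 of the 335 shared rises and 277 of the 292 shared falls, the treated libraries did not overlap with the untreated ones in either line. These counts largely restate the calls, which were made on the same libraries, and the share over all genes was not counted. The median log2 fold change of the shared rises was 2.12 with doxorubicin and 1.41 with 5-FU, and 236 of them were larger with doxorubicin. Without untreated MDA-MB-231 replicate 1 the shared sets held 367 rises and 354 falls, including 306 and 276 of those above. Against vehicle-treated A431 they held 309 and 262, including 283 and 241 of those above.

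Among the genes that rose with both drugs were the cell cycle inhibitor CDKN1A, the stress factor DDIT3, the cytokine IL24 and the collagenase MMP1. CDKN1A encodes p21, which blocks cyclin-dependent kinases. It stood at 83.2, 80.9 and 87.3 CPM in untreated A431 and 297, 272 and 298 CPM with doxorubicin, and at 132, 157 and 159 CPM in untreated MDA-MB-231 and 429, 433 and 433 CPM with 5-FU, with no overlap in either line. The log2 fold changes were 1.72 ± 0.057 (SE, adjusted p = 1.58e-17) and 1.54 ± 0.069 (adjusted p = 1.00e-08), and their difference of 0.26 ± 0.11 did not pass the test (adjusted p = 0.0607). Against vehicle-treated A431 the rise of CDKN1A was 0.75, below the threshold. DDIT3, which encodes the stress transcription factor CHOP, went from 17.2, 16.4 and 15.9 to 115, 105 and 118 CPM with doxorubicin and from 11.9, 8.52 and 8.95 to 36.1, 38.2 and 37.7 CPM with 5-FU. These are log2 fold changes of 2.70 ± 0.072 and 1.95 ± 0.12.

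IL24, a cytokine of the IL-10 family, was low in A431 and higher in MDA-MB-231. It went from 0.3, 0.165 and 0 to 1.57, 1.94 and 1.5 CPM with doxorubicin (log2 fold change 3.29 ± 0.40) and from 1.51, 1.88 and 2.44 to 22.6, 25.1 and 24.2 CPM with 5-FU (3.63 ± 0.13). Groups did not overlap in either line, and the adjusted p-values were 1.30e-07 and 1.89e-09. Against vehicle-treated A431 the doxorubicin value of IL24 was 1.63, and the difference between the responses was -1.90 in place of -0.26. MAP1A, a microtubule-associated protein, rose from 1.68, 0.772 and 0.685 to 10.9, 10.9 and 12 CPM and from 0, 0.137 and 0.0489 to 0.904, 1.32 and 1.13 CPM. DLL4, a Notch ligand, rose from 0.06, 0 and 0.249 to 17.2, 15.1 and 17.8 CPM with doxorubicin and from 0.313, 0.229 and 0.342 to 3.03, 2.54 and 3.12 CPM with 5-FU, and its doxorubicin response was larger by 4.04 ± 0.66 on the log2 scale (adjusted p = 0.000161). IL1RL1, the receptor of interleukin 33, rose from 1.14, 0.827 and 1.18 to 28.5, 26.1 and 26.1 CPM with doxorubicin. In MDA-MB-231 IL1RL1 had no count in the untreated libraries and 0.633, 0.895 and 1.04 CPM with 5-FU, which is at least 17.5-fold higher, taking 3 counts over the group as the floor.

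Several of the largest shared rises rested on few reads. Of the 28 genes named for a call in both responses, 9 had 3 or fewer counts over one of the groups. RSPO3, a Wnt agonist, had no count in untreated A431 and 0.404, 0.614 and 0.466 CPM with doxorubicin, at least 8.39-fold higher, and had 3 counts in untreated MDA-MB-231 and 85 with 5-FU, a ratio of 27 with a 95% exact interval of 8.93 to 133 that covers counting error only. PRSS35, a serine protease, had no count in untreated A431 and 34 counts with doxorubicin, at least 9.83-fold higher. ABCC9, a subunit of potassium channels, had 1 count in untreated A431 and 28 with doxorubicin, a ratio of 24.3 with an interval of 4.02 to 993. CEP295NL had 3 and 65 counts, a ratio of 18.8 with an interval of 6.15 to 93.5.

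Genes that fell with both drugs included SLC19A1, MT1E, EEFSEC, SORCS2 and the hypoxia-induced transcript MIR210HG. SLC19A1 encodes the reduced folate carrier, which brings folates into the cell. Its level in A431 was 33.6, 31.9 and 35.5 CPM untreated and 0.757, 0.511 and 0.466 CPM with doxorubicin, and in MDA-MB-231 1.67, 2.29 and 4.2 CPM untreated and 0.407, 0.424 and 0.378 CPM with 5-FU. The log2 fold changes were -5.91 ± 0.19 (adjusted p = 8.01e-18) and -2.73 ± 0.44 (adjusted p = 0.000222), and the fall was deeper with doxorubicin, a difference of -3.10 (adjusted p = 0.000478). MT1E, a metallothionein that binds zinc and copper, went from 464, 515 and 486 to 41.9, 41.1 and 46.3 CPM and from 312, 167 and 156 to 41.4, 42 and 40.8 CPM. The treated levels of MT1E in both lines lay in a similar range although the starting levels differed. Reads of MT1E may be shared with near-identical metallothionein genes.

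MIR210HG, the host transcript of a hypoxia-induced microRNA, went from 21.8, 22.4 and 17.4 to 2.52, 2.92 and 1.97 CPM and from 18.8, 23.2 and 22.5 to 2.53, 1.79 and 1.61 CPM, log2 fold changes of -3.12 ± 0.15 and -3.42 ± 0.17. EEFSEC, the elongation factor for selenocysteine, went from 45, 49 and 51.3 to 9.09, 10.6 and 10.2 CPM and from 13, 17.9 and 16.9 to 1.67, 2.36 and 1.61 CPM. SORCS2, a sorting receptor, fell by 2.75 with doxorubicin and by 3.29 with 5-FU on the log2 scale, and in MDA-MB-231 its untreated replicate 1 stood at 28.5 CPM against 65 and 63.7 CPM in replicates 2 and 3. SERPINA5, a protease inhibitor, DHRS2, a reductase, and PLCH2, a phospholipase, completed the 8 largest shared falls, with log2 fold changes of -4.19, -2.68 and -3.29 with doxorubicin and -2.34, -2.37 and -2.64 with 5-FU.

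**Figure D2:**
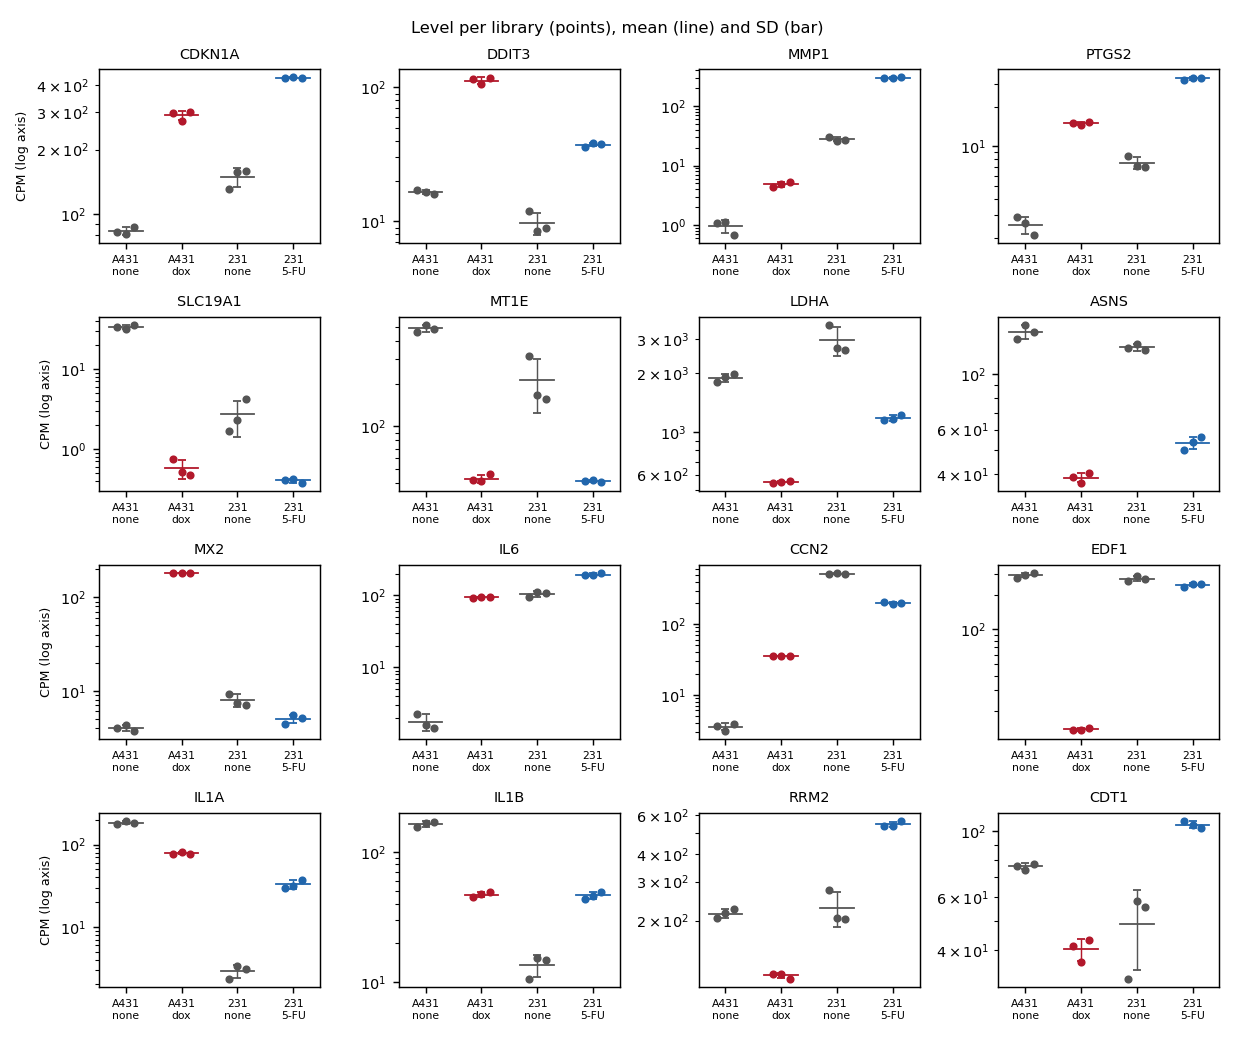
Level of 16 genes in CPM on a log axis, with each library as a point, the mean of the 3 libraries as a line and the SD as a bar, in untreated (none) and treated A431 and MDA-MB-231 (231). The first 8 genes moved the same way with both drugs and the last 8 differed, for example MX2 near 180 CPM with doxorubicin alone.

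All 185 and all 53 genes called in opposite directions also passed the test of the difference. Their selection all but fixed this outcome, since values beyond 1 in opposite directions, from the same libraries, give a difference beyond its threshold. FOSB, a subunit of the AP-1 factor, went from 37.7, 28 and 27.7 to 215, 193 and 167 CPM with doxorubicin and from 42.6, 58.3 and 61.2 to 6.87, 6.5 and 6.09 CPM with 5-FU. Its log2 fold changes were 2.56 ± 0.11 and -3.05 ± 0.23, but against vehicle-treated A431 the doxorubicin value was -1.90, so the opposite call was lost. COL6A3, a collagen VI chain, had 3 counts in untreated A431 and 72 with doxorubicin, a ratio of 20.8 with an exact interval of 6.85 to 103, and fell from 109, 136 and 131 to 27.5, 28.5 and 29.6 CPM with 5-FU. COL1A2, a collagen I chain, had 1 count and 56 counts in the A431 groups, and fell from 6.52, 6.78 and 8.6 to 0.452, 1.08 and 1.32 CPM with 5-FU. HSD3B1, a steroid dehydrogenase, had no count in untreated A431 and 2.63, 1.79 and 2.49 CPM with doxorubicin, at least 39-fold higher, and fell from 8.35, 3.67 and 3.76 to 0.317, 0.283 and 0.236 CPM with 5-FU. TRIM63, a muscle ubiquitin ligase, also had no count in untreated A431 and 22 counts with doxorubicin, at least 6.36-fold higher, and its log2 fold change with 5-FU was -3.47 ± 0.38. ATP2B2, a calcium pump, rose from 0.24, 0.221 and 0 to 1.11, 0.972 and 1.19 CPM and fell from 1.3, 2.61 and 2.88 to 0.0904, 0.236 and 0.189 CPM. TCP10L stood at 0.24, 0 and 0 and 1.01, 0.563 and 0.88 CPM in A431, and went from 0.835, 0.55 and 0.489 CPM to no count with 5-FU, at least 13.3-fold lower.

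In the reverse direction, fewer genes moved and their levels were mostly low in one line. SCEL, a precursor of the cornified envelope of skin, fell from 40, 37.3 and 36 to 7.42, 10.2 and 10.3 CPM with doxorubicin and rose from 0.104, 0.0917 and 0.147 to 0.678, 0.895 and 0.661 CPM with 5-FU. SGPP2, a sphingosine-1-phosphate phosphatase, fell from 7.55, 8.11 and 8.28 to 2.37, 1.74 and 1.86 CPM and rose from 0.157, 0.596 and 0.44 to 2.67, 2.26 and 2.6 CPM. HSPA6, a heat-inducible chaperone, fell by 2.24 with doxorubicin and had a log2 fold change of 1.98 with 5-FU, while against vehicle-treated A431 its doxorubicin value was 0.24. KCNE5, a potassium channel subunit, and the long noncoding MIR663AHG had log2 fold changes of -1.99 and -4.05 with doxorubicin and 2.44 and 1.84 with 5-FU. The controls of MIR663AHG were uneven, at 7.36, 59 and 55.6 CPM in untreated MDA-MB-231 against 149, 156 and 129.6 CPM with 5-FU. The sixth gene has no symbol in the table used for names.

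The difference of the responses was tested in 1 fit over the 12 libraries. It was higher with doxorubicin in 2267 genes (17% of the 13357 tested) and lower in 1733 (13%). Among the 335 shared rises, 98 were larger with doxorubicin and 12 with 5-FU, and among the 292 shared falls 45 were deeper with doxorubicin and 9 with 5-FU. Of 1565 genes that rose with doxorubicin alone, 1237 passed this test, and of 362 that rose with 5-FU alone 193 did. These genes were selected by calls made on the same libraries, so a difference was largely built in. Among genes called in neither response, 450 were higher and 396 lower with doxorubicin.

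The genes with the firmest differences higher with doxorubicin were CCN2, IFI6, MX2, PAPSS2, TMEM158 and CPA4. CCN2, or connective tissue growth factor, went from 3.66, 3.09 and 3.86 to 35.1, 35.7 and 35.2 CPM with doxorubicin and from 520.5, 531 and 524 to 204, 192 and 198 CPM with 5-FU, a difference of 4.73 ± 0.11 (adjusted p = 1.46e-11). Against vehicle-treated A431 the doxorubicin response of CCN2 was 0.11 and the difference was 1.59. PAPSS2, which makes the sulphate donor of the cell, went from 6.36, 5.41 and 6.85 to 86.6, 86 and 89.7 CPM in A431, and stood at 97.6, 104 and 106 CPM untreated and 99.4, 97.3 and 95.5 CPM with 5-FU in MDA-MB-231, so that the treated A431 libraries lay below, but near, those of the other line. CPA4, a carboxypeptidase, had 3.6, 3.25 and 3.61 CPM in untreated A431 and 42.1, 42.9 and 41.1 CPM with doxorubicin. In MDA-MB-231 it stood at 48.1, 48.1 and 47.1 CPM untreated and 45.8, 44.3 and 41.9 CPM with 5-FU. The 5-FU libraries overlapped with the doxorubicin libraries of A431. TMEM158, a membrane protein induced by Ras signalling, rose by a log2 fold change of 3.17 in A431 and stood at -0.51 in MDA-MB-231.

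The firmest differences lower with doxorubicin were EDF1, METTL26, NUDT14, PHPT1, IL1A and FAF1. EDF1, a ribosome-associated coactivator, went from 280.1, 294 and 305 to 13.7, 13.5 and 14.2 CPM with doxorubicin and stood at 259.7, 288 and 273 CPM untreated and 234, 247 and 245 CPM with 5-FU, a difference of -4.23 ± 0.098 (adjusted p = 1.46e-11). PHPT1, a histidine phosphatase, had 137, 137 and 134 and 8.13, 6.24 and 7.51 CPM in A431 and 143, 165 and 157 and 149.9, 154 and 141 CPM in MDA-MB-231. METTL26 and NUDT14, a nucleotide sugar hydrolase, fell by 5.33 and 4.92 on the log2 scale with doxorubicin and had values of -0.09 and 0.60 with 5-FU. FAF1, a FAS-associated protein, fell by 2.93 with doxorubicin and had a value of -0.32 with 5-FU. The libraries are described as unstranded, so reads of a gene that overlaps another on the opposite strand cannot be told apart from those of its neighbour.

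**Figure D3:**
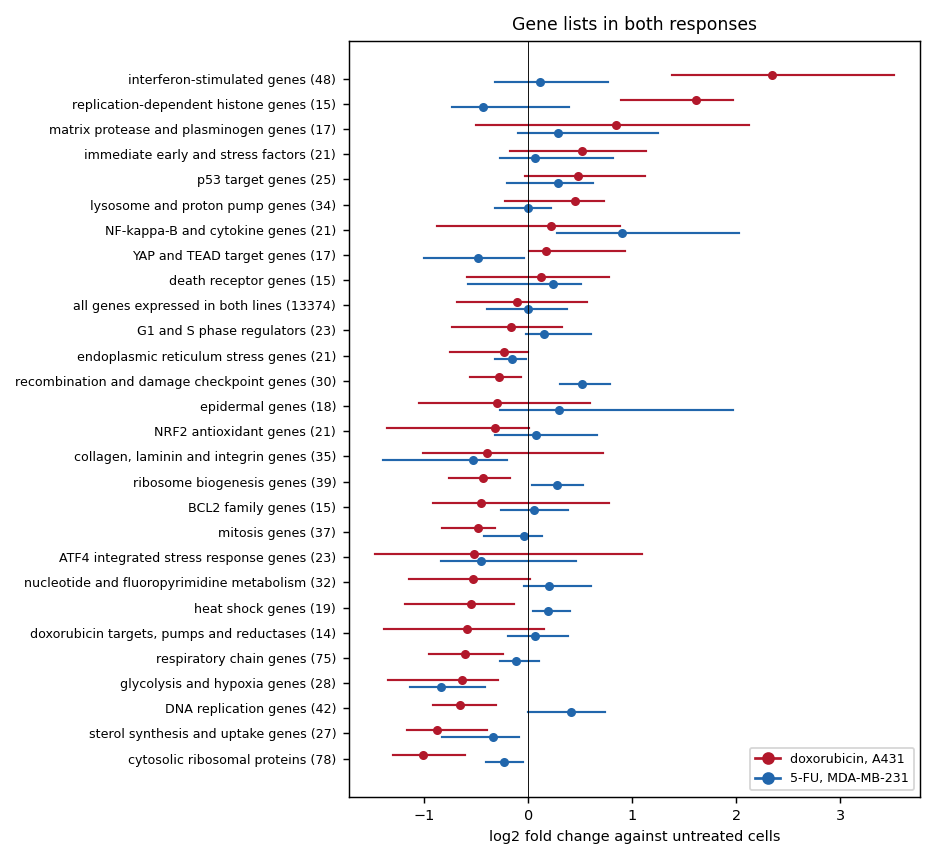
Median log2 fold change (point) and interquartile range (line) of the members of each gene list expressed in both lines, with doxorubicin in A431 (red) and 5-FU in MDA-MB-231 (blue), ordered by the doxorubicin median, with the number of members in brackets. Interferon-stimulated genes lie highest with doxorubicin (median 2.34) and ribosomal proteins lowest (-1.01), whereas with 5-FU the NF-kappa-B list lies highest (0.90) and the glycolysis list lowest (-0.84).

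Of 25 expressed p53 target genes 10 rose (40%, against 15.6% of all genes) and 2 fell (8%, against 15.4%) with doxorubicin (median 0.48). With 5-FU 2 rose (8%, against 5.61%, median 0.29). In the test of the difference 5 were higher (20%, near the 17% of all genes) and 2 lower (8%, against 13%) with doxorubicin. The state of p53 in the lines was not tested. The 2 that rose with 5-FU were CDKN1A and the nuclease AEN, which rose with both. AEN stood at 27.1, 26.6 and 29.2 and 61.7, 57.2 and 63.7 CPM in A431 and at 27.8, 26.9 and 27.6 and 63.6, 68.8 and 61.5 CPM in MDA-MB-231, and its doxorubicin value was 0.75 against vehicle, below the threshold. TP53INP1, an inducer of cell death, rose from 3.36, 4.52 and 2.18 to 34.3, 34.4 and 33.2 CPM with doxorubicin and had 18, 14.8 and 15.4 CPM untreated and 13, 13.9 and 14.6 CPM with 5-FU. MDM2, the ubiquitin ligase that limits p53, had log2 fold changes of 0.48 and 0.61, below the threshold in both. GDF15, a stress cytokine, rose by 1.10 with doxorubicin, and by 0.96 against vehicle, short of the threshold. PHLDA3, an AKT inhibitor, and DDB2, a DNA damage sensor, fell with doxorubicin by 1.85 and 1.23. Against vehicle-treated A431, 4 of the targets rose and 3 fell, with a median of 0.09.

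Cell death genes changed in both directions, and the shares that rose or fell with doxorubicin lay near those of all genes. Of 15 expressed BCL2 family genes 3 rose (20%, against 15.6% of all genes) and 3 fell (20%, against 15.4%) with doxorubicin. With 5-FU 1 rose (6.67%, against 5.61%). In the test of the difference 4 were higher (26.7%, against 17% of all genes) and 5 lower (33.3%, against 13%) with doxorubicin, and 2 each against vehicle. The rises with doxorubicin were in the pro-death members BBC3 (1.12), PMAIP1 (1.68) and BCL2L11 (1.5), and those of BBC3 and PMAIP1 were 0.63 and 0.56 against vehicle. BCL2A1, a survival gene driven by NF-kappa-B, moved in opposite ways. It fell from 5.82, 6.51 and 5.1 to 2.37, 2.66 and 2.28 CPM with doxorubicin, and in MDA-MB-231 it had 2 counts in the untreated libraries and 238 with 5-FU, a ratio of 113 with an interval of 31 to 941. The death receptor FAS had log2 fold changes of -0.03 and 0.29. Of 15 expressed genes of death receptor signalling 2 rose (13.3%) and 2 fell (13.3%) with doxorubicin, or 5 and 0 with library size alone. With 5-FU 1 rose (6.67%), TNFRSF10A, a receptor of TRAIL, at 1.07.

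Genes of DNA replication parted between the lines. Of 42 expressed members 8 fell (19%, near the 15.4% of all genes) and 0 rose with doxorubicin at a median of -0.65. At an unadjusted p under 0.05, 5 lay higher with doxorubicin, and DESeq2 called 0. With 5-FU 6 rose (14.3%, against 5.61% of all genes) and 1 fell (2.38%, against 6.98%) at a median of 0.41. In the test of the difference 15 were lower with doxorubicin (35.7%, against 13%). CDT1, which licenses replication origins, went from 76.7, 74.3 and 77.9 to 41.2, 36.4 and 43.1 CPM with doxorubicin and from 32.1, 58.6 and 55.9 to 108, 105 and 103 CPM with 5-FU. Its difference was -2.03 ± 0.23 (adjusted p = 7.87e-06), and without untreated MDA-MB-231 replicate 1 its 5-FU value was 0.89 in place of 1.12, below the threshold. ORC1, a subunit of the origin recognition complex, had 28.1, 30.3 and 29 and 19.4, 22.4 and 19 CPM in A431 and 24.5, 19.8 and 21.7 and 53.6, 49.7 and 53.3 CPM in MDA-MB-231. CLSPN, the adaptor that activates the checkpoint kinase CHEK1, rose with 5-FU by 1.78 and had a value of 0.86 with doxorubicin. The helicase subunit MCM6, whose promoter is printed above, fell in both lines, from 110.0, 114 and 129 to 46.1, 50 and 50.7 CPM and from 112, 103 and 102 to 43.3, 44.4 and 47 CPM. PCNA, the sliding clamp, and MCM3 had log2 fold changes of -0.55 and -0.37 with doxorubicin and -0.15 and -0.94 with 5-FU. With library size alone 2 members fell with doxorubicin and 10 rose with 5-FU, while the medians kept their signs, at -0.31 and 0.54.

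Among G1 and S phase regulators and recombination genes more members were lower than higher with doxorubicin in the test of the difference. Of 23 expressed G1 and S phase regulators 2 rose (8.7%) and 4 fell (17.4%, near the 15.4% of all genes) with doxorubicin. With 5-FU 4 rose (17.4%, against 5.61%) and 1 fell. In the test of the difference 1 was higher and 7 were lower (30.4%, against 13%) with doxorubicin. The rises with 5-FU included the phosphatase CDC25A (37.6, 32.2 and 32.5 to 83.3, 87 and 93.5 CPM) and the repressor E2F8, while CCND2, a D-type cyclin, fell from 11.8, 13.3 and 10.1 to 1.06, 1.18 and 0.57 CPM with doxorubicin. CDKN1C, a cyclin-dependent kinase inhibitor, rose with doxorubicin (1.28) and fell with 5-FU (-1.08). CCNE2, the S phase cyclin E2, rose with 5-FU by 1.25 and had a value of 0.97 with doxorubicin. The median of this list with doxorubicin was -0.16, and 0.18 with library size alone. Of 30 expressed recombination and checkpoint genes 1 rose and 2 fell with doxorubicin (the falls are 6.67%, below the 15.4% of all genes). With 5-FU 5 rose (16.7%, against 5.61%) at a median of 0.51. In the test of the difference 10 were lower with doxorubicin (33.3%, against 13%), or 13 without untreated MDA-MB-231 replicate 1. BRCA1, a core factor of homologous recombination, went from 32.3, 27 and 26.7 to 60.5, 57.9 and 64.6 CPM with 5-FU and from 70.9, 70.5 and 73.3 to 53.9, 55.1 and 53.1 CPM with doxorubicin. XRCC2, a recombination factor, rose by 1.33 with 5-FU, and CHEK1 and NBN fell by 1.21 and 1.51 with doxorubicin. The doxorubicin median of -0.28 for this list was 0.06 with library size alone.

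Mitosis genes changed in few members. Of 37 expressed members 4 fell with doxorubicin (10.8%, below the 15.4% of all genes, median -0.49). With 5-FU 0 were called by edgeR (median -0.04, and 0.09 with library size alone). At an unadjusted p under 0.05, 7 mitosis genes lay higher and 14 lower with 5-FU, and DESeq2 called 1 as lower. The test of the difference found 4 lower with doxorubicin (10.8%, against 13% of all genes), and 7 without untreated MDA-MB-231 replicate 1. CCNB1, the mitotic cyclin B1, had values of -0.80 and -0.79, and PLK1, a mitotic kinase, of -0.95 and -0.99. MKI67, the proliferation marker, stood at -0.43 and 0.58. LMNB1, a nuclear lamina protein, went from 199.7, 197 and 208 to 37.1, 37.6 and 39.1 CPM with doxorubicin and from 159.7, 190.0 and 183 to 128, 128 and 133 CPM with 5-FU, where the value of -0.44 did not pass the threshold, and the difference of -1.96 passed the test (adjusted p = 9.38e-09).

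Nucleotide metabolism genes, which include the targets and activators of 5-FU, had more falls with doxorubicin than with 5-FU on the TMM scale. All genes did so too. Of 32 expressed members 10 fell (31.2%, against 15.4% of all genes) and 2 rose (6.25%, against 15.6%) with doxorubicin (median -0.53). With 5-FU 3 fell (9.38%, against 6.98%) and 2 rose (6.25%, near 5.61%), at a median of 0.20. In the test of the difference 11 were lower (34.4%, against 13%) and 2 higher (6.25%, against 17%) with doxorubicin. With library size alone 2 fell with doxorubicin and 0 with 5-FU, and 9 were lower in the difference. RRM2, the regulated subunit of ribonucleotide reductase, went from 276, 205 and 204 to 536, 538 and 564 CPM with 5-FU and from 205, 216 and 224 to 114, 115 and 109 CPM with doxorubicin. Its log2 fold change of 1.27 ± 0.1 with 5-FU passed the test (adjusted p = 7.11e-07), that of -0.998 with doxorubicin did not pass the fold threshold, and the difference was -2.19 ± 0.14 (adjusted p = 6.32e-08). TYMS, thymidylate synthase and the main target of 5-FU, went from 149, 112 and 107 to 161, 153 and 168 CPM with 5-FU, a value of 0.40, below the threshold. TK1, a thymidine kinase, stood at 0.05 and 0.48. The 3 genes that fell with both were DPYD, which degrades 5-FU, SHMT2, a mitochondrial folate enzyme, and SLC29A2, a nucleoside transporter. DPYD went from 19.5, 19.5 and 19.6 to 7.37, 6.34 and 9.53 CPM and from 98.6, 82.2 and 82.9 to 42.7, 42.1 and 42.5 CPM, and its 5-FU value was -0.95 without untreated MDA-MB-231 replicate 1. For SLC29A2 the doxorubicin value against vehicle was -0.99. Both values are under the threshold. MTHFD1, another folate enzyme, fell by 1.81 with doxorubicin and had a value of -0.12 with 5-FU, while SAMHD1, which degrades nucleotides and is also interferon-induced, rose by 1.56 with doxorubicin.

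Targets, pumps and reductases of doxorubicin changed both ways. Of 14 expressed members 5 fell (35.7%, against 15.4% of all genes) and 1 rose (7.14%, against 15.6%) with doxorubicin (median -0.59). With 5-FU 1 rose (7.14%, against 5.61%). The falls included XDH (-1.63) and AKR1A1 (-1.51). The efflux pump ABCB1 and the transporter SLC22A16 did not pass the filter in MDA-MB-231 and rose in A431. They had no count untreated and 38 and 45 counts with doxorubicin, at least 11-fold and 13-fold higher. Such genes can pass the filter through the treated libraries. They were not compared with vehicle. TOP2B, topoisomerase II beta, went from 93, 102 and 93.3 to 33.9, 37.2 and 34.9 CPM with doxorubicin and from 154, 143 and 146 to 98.4, 87.8 and 93.5 CPM with 5-FU, where its value of -0.65 was below the threshold. TOP2A, the alpha form, had values of -0.73 and -0.00. ABCG2, a drug efflux pump, rose with 5-FU from 5.48, 2.57 and 2.69 to 7.91, 8.44 and 8.55 CPM and stood at 25.4, 28 and 26.6 and 20.5, 20.3 and 20.2 CPM in A431.

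Interferon-stimulated genes had the largest share of members that differed between the responses among the lists compared. Of 48 expressed members 40 rose (83.3%, against 15.6% of all genes) and 0 fell with doxorubicin at a median of 2.34. With 5-FU 5 rose (10.4%, against 5.61%) at a median of 0.12. At an unadjusted p under 0.05, 3 lay lower with doxorubicin and 14 lower with 5-FU, and neither edgeR nor DESeq2 called one. In the test of the difference 40 were higher with doxorubicin (83.3%, against 17% of all genes) and 1 lower (2.08%, against 13%). MX2, an antiviral GTPase, went from 4.02, 4.25 and 3.73 to 181, 180.5 and 182 CPM with doxorubicin and from 9.29, 7.42 and 7.09 to 4.43, 5.47 and 5.1 CPM with 5-FU. Its log2 fold changes were 5.43 ± 0.086 (adjusted p = 7.04e-23) and -0.65 ± 0.13, and the difference was 6.16 ± 0.16 (adjusted p = 3.09e-11). IFI6, whose promoter stretch holds 3 copies of the motif, went from 39.5, 42.6 and 47.7 to 1590.2, 1591 and 1629.6 CPM with doxorubicin and from 20, 19.4 and 19.8 to 34.2, 31.2 and 29.7 CPM with 5-FU. For IFIT1, an RNA-binding antiviral protein with 2 copies, the levels were 53.2, 53.7 and 49.2 and 616, 672 and 605 CPM in A431 and 72.7, 34.7 and 33.8 and 39.6, 42.6 and 40.1 CPM in MDA-MB-231. ISG15, a ubiquitin-like protein, rose from 73.3, 71.8 and 77.2 to 875, 858 and 924 CPM with doxorubicin and had a value of 0.90 with 5-FU, under the threshold, and of 1.11, past it, without untreated MDA-MB-231 replicate 1.

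The 4 members that rose with both were RSAD2, USP18, IRF7 and IFI44L, and for each the doxorubicin response was larger. RSAD2, the antiviral protein viperin, went from 10.1, 8.22 and 8.28 to 143, 163 and 155 CPM and from 2.82, 1.15 and 1.37 to 6.65, 4.76 and 5.38 CPM. IRF7, which amplifies interferon transcription, went from 31.4, 26.1 and 31.9 to 194, 179 and 203 CPM and from 16.6, 28.6 and 30 to 80.7, 82.9 and 69.3 CPM. CXCL11, a chemokine, rose with 5-FU (1.48), had a value of 0.34 with doxorubicin, and was the 1 member lower with doxorubicin in the test of the difference. MX1, an antiviral GTPase related to MX2, rose by 2.73 with doxorubicin and had a value of -0.24 with 5-FU. IFNB1, interferon beta itself, did not pass the filter in MDA-MB-231, where it had no count, and in A431 it had no count untreated and 1.11, 0.818 and 1.35 CPM with doxorubicin, at least 18.5-fold higher. The counts held against vehicle-treated A431, where 39 members rose, and without untreated MDA-MB-231 replicate 1 the number that rose with 5-FU was 8.

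**Figure D4:**
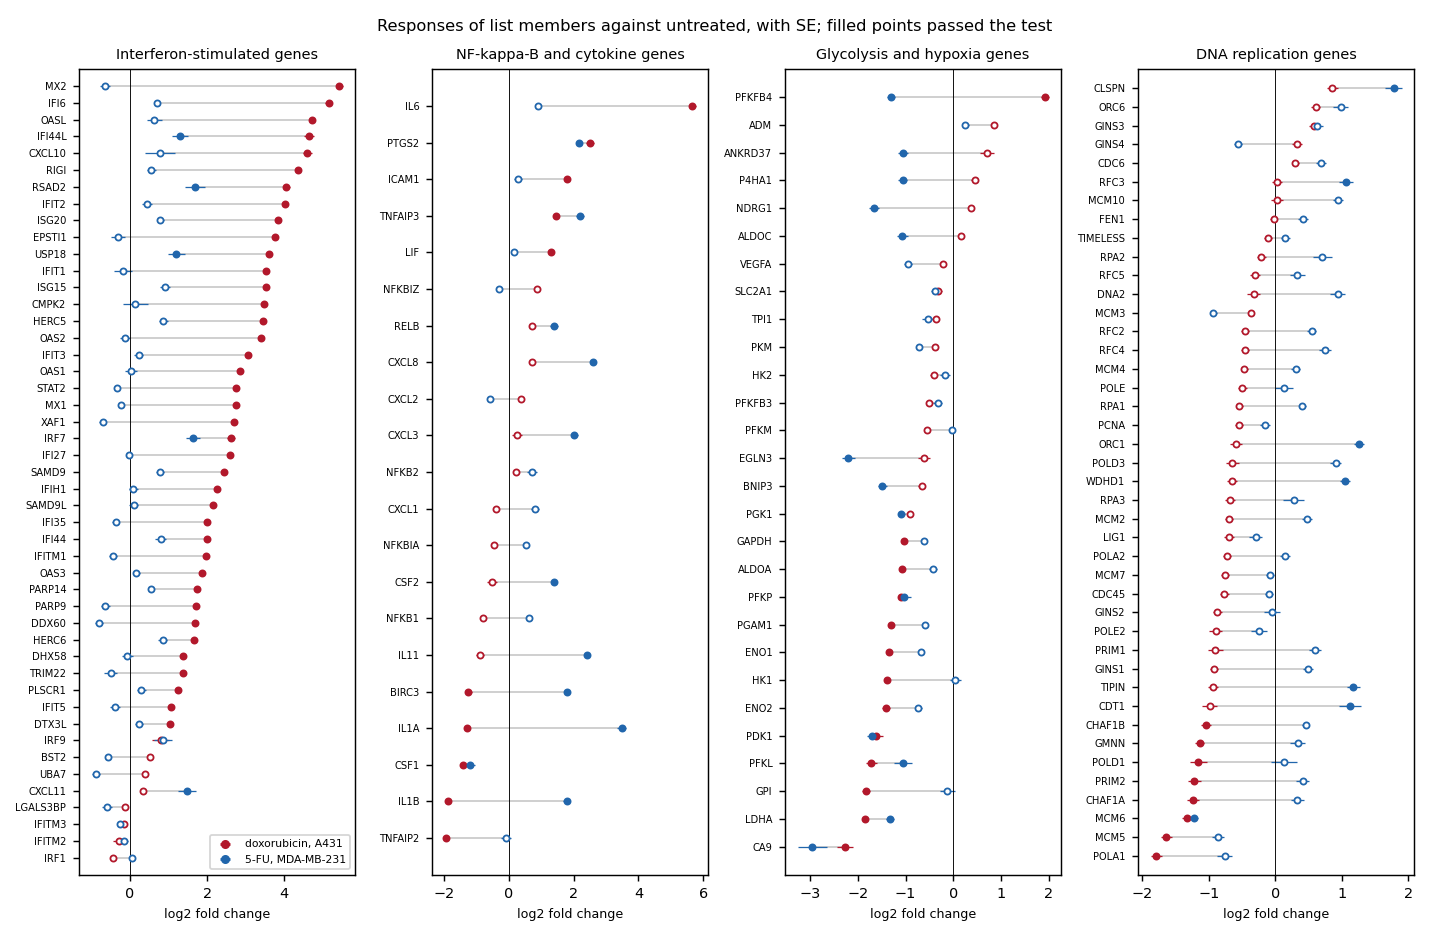
Log2 fold change with its standard error for expressed members of 4 gene lists, some members left out, with doxorubicin in A431 (red) and 5-FU in MDA-MB-231 (blue), filled where the gene passed the test and joined by a grey line. Interferon genes separate with doxorubicin high, IL1A, IL1B and BIRC3 lie on opposite sides of 0, and CA9, LDHA and PDK1 lie low in both.

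NF-kappa-B and cytokine genes showed the opposite arrangement, with more rises for 5-FU. Of 21 expressed members 10 rose (47.6%, against 5.61% of all genes) and 1 fell (4.76%, against 6.98%) with 5-FU (median 0.90). With doxorubicin 5 rose and 5 fell (23.8% each, against 15.6% and 15.4%), at a median of 0.22. In the test of the difference 10 were lower (47.6%, against 13%) and 5 higher (23.8%, against 17%) with doxorubicin. IL1A, an alarmin, fell from 180.2, 193 and 182 to 78, 81.6 and 76.8 CPM with doxorubicin and rose from 2.35, 3.39 and 3.08 to 29.9, 31.6 and 37.2 CPM with 5-FU. The log2 fold changes of IL1A were -1.30 ± 0.083 (adjusted p = 1.78e-12) and 3.49 ± 0.14 (adjusted p = 4.67e-09). IL1B moved likewise, from 154, 166 and 170.5 to 44.8, 47 and 48.9 CPM and from 10.6, 15.4 and 14.7 to 43.6, 45.9 and 49.4 CPM, and so did BIRC3, an inhibitor of apoptosis, at -1.24 and 1.80. After treatment the levels of IL1B in both lines overlapped, although they had started apart.

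IL6 ran the other way. It went from 2.28, 1.6 and 1.43 to 92.3, 94 and 95.9 CPM with doxorubicin, a log2 fold change of 5.66 ± 0.11, and from 93.8, 112 and 108 to 190.0, 189 and 204 CPM with 5-FU, a value of 0.90 ± 0.072 that stayed under the threshold. CXCL8, a neutrophil chemokine, rose with 5-FU from 95.2, 120.2 and 113 to 633, 658 and 694 CPM and stood at 33.6, 34.3 and 41.1 and 58.8, 69.3 and 59.4 CPM in A431. Both drugs raised PTGS2, the inducible cyclooxygenase, from 2.88, 2.59 and 2.12 to 15.2, 14.6 and 15.3 CPM and from 8.45, 7.15 and 6.94 to 32.2, 33.6 and 33.5 CPM, and against untreated cells both raised TNFAIP3, a brake on NF-kappa-B, by 1.46 and 2.19. CSF1, a macrophage growth factor, fell with both (-1.40 and -1.19). The choice of control decided much of the A431 side. Against vehicle-treated A431 2 members rose and 13 fell with doxorubicin and the median was -1.62, with values of -2.60 for CXCL8, -3.31 for IL1A, 0.61 for PTGS2, -1.89 for TNFAIP3 and 5.08 for IL6, so that the difference for PTGS2 became -1.45.

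Immediate early and stress factors depended on the control in the same way. Of 21 expressed members 6 rose (28.6%, against 15.6% of all genes) and 0 fell with doxorubicin against untreated cells (median 0.51). Against vehicle 0 rose and 13 fell (median -1.32), where 2137 of all 13374 genes rose and 2144 fell. At an unadjusted p under 0.05, 4 lay lower against untreated cells, and DESeq2 called 0. With 5-FU 4 rose (19%, against 5.61%) and 3 fell (14.3%, against 6.98%). ATF3, a stress-induced repressor, rose with both drugs, from 12.3, 10.6 and 14 to 152, 156 and 160.1 CPM and from 18.2, 16.1 and 15.7 to 42, 42 and 41.4 CPM, but its doxorubicin value against vehicle was -1.55 and the difference became -2.80. FOS, the AP-1 subunit, fell from 389, 309 and 265 to 20.4, 24.4 and 23.8 CPM with 5-FU and had a value of -0.96 with doxorubicin, a difference of 2.92. Against vehicle the doxorubicin value of FOS was -3.46 and the difference 0.43, under the threshold. EGR2, a growth-induced zinc finger factor, rose with both against untreated cells, at 1.13 and 2.44, and its doxorubicin value against vehicle was -1.24.

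**Figure D5:**
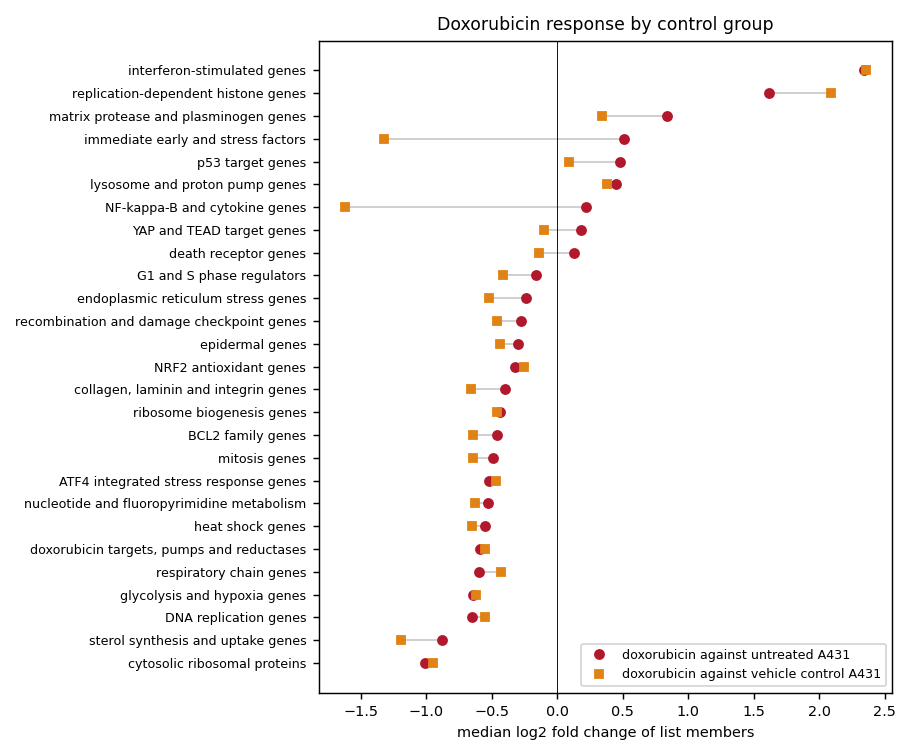
Median log2 fold change with doxorubicin of the members of each gene list against untreated A431 (circles) and against vehicle-treated A431 (squares). Interferon-stimulated genes lie at 2.34 and 2.36, whereas the NF-kappa-B list moves from 0.22 to -1.62 and the immediate early list from 0.51 to -1.32.

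Glycolysis and hypoxia genes fell with both drugs, through partly different members. Of 28 expressed members 12 fell (42.9%, against 15.4% of all genes) and 1 rose (3.57%, against 15.6%) with doxorubicin (median -0.64). With 5-FU 13 fell (46.4%, against 6.98%) at a median of -0.84. In the test of the difference 6 were higher (21.4%, against 17%) and 2 lower (7.14%, against 13%) with doxorubicin. The 5 that fell with both were CA9, LDHA, PDK1, PFKL and PFKP. CA9, a hypoxia-induced carbonic anhydrase, went from 8.39, 6.78 and 10.3 to 1.51, 2.1 and 1.92 CPM and from 2.92, 4.58 and 5.28 to 0.769, 0.377 and 0.472 CPM, log2 fold changes of -2.26 ± 0.17 (adjusted p = 4.29e-11) and -2.95 ± 0.31 (adjusted p = 6.34e-06). LDHA, lactate dehydrogenase, went from 1801, 1910.2 and 1994 to 545, 550.5 and 555 CPM and from 3552, 2711 and 2648 to 1147, 1158 and 1219.7 CPM. PDK1, a pyruvate dehydrogenase kinase, fell by 1.61 and 1.71. Hypoxia targets outside the glycolytic chain fell with 5-FU, among them EGLN3, an oxygen-sensing hydroxylase, from 24.4, 18.4 and 17.6 to 4.79, 3.82 and 4.39 CPM, and NDRG1, a stress-responsive protein, from 437, 529 and 604 to 165, 165 and 163 CPM, while NDRG1 had a value of 0.37 with doxorubicin. The isomerase GPI fell with doxorubicin (-1.83) and stood at -0.13 with 5-FU. PFKFB4, which sets the level of a glycolytic activator, was called in opposite directions, from 11.2, 11 and 10.5 to 45.2, 39.4 and 43.9 CPM and from 37.4, 41 and 47.5 to 17.1, 16.9 and 16.6 CPM. PGK1, whose promoter is printed above, fell with 5-FU (-1.09) and had a value of -0.92 with doxorubicin. With library size alone 7 members fell with each drug. Against vehicle the doxorubicin value of PFKP was -0.97, and without untreated MDA-MB-231 replicate 1 the 5-FU value of PGK1 was -0.99, both under the threshold.

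Members of the ATF4 programme changed in both directions. Of 23 expressed members 9 fell (39.1%, against 15.4% of all genes) and 6 rose (26.1%, against 15.6%) with doxorubicin. With 5-FU 5 fell (21.7%, against 6.98%) and 2 rose (8.7%, against 5.61%). In the test of the difference 5 were higher and 5 lower with doxorubicin (21.7% each, against 17% and 13%). There 3 were lower without untreated MDA-MB-231 replicate 1, and 3 higher against vehicle. The 4 that fell with both were ASNS, PSAT1, PHGDH and DDIT4, and both of the rises with 5-FU, DDIT3 and ATF3, were shared, although that of ATF3 turned to -1.55 with doxorubicin against vehicle. ASNS, asparagine synthetase, went from 138, 156 and 146 to 38.9, 36.9 and 40.3 CPM and from 127, 131 and 124 to 50, 53.4 and 55.9 CPM. PSAT1, of serine synthesis, went from 194, 209 and 210.4 to 72.5, 68.3 and 76.6 CPM and from 258, 219.5 and 211 to 62.9, 60.8 and 61.8 CPM, and PHGDH, the first enzyme of that pathway, had values of -1.75 and -1.13. DDIT4, an inhibitor of mTORC1, fell by 2.89 and 1.89. SLC7A11 and SLC7A5, the cystine and leucine transporters, fell with doxorubicin (-2.12 and -2.48) and had values of -0.60 and -0.52 with 5-FU. ATF4 itself stood at -0.61 and -0.78, under the threshold. VLDLR, a lipoprotein receptor, was the member called in opposite directions (2.07 and -1.35), with a doxorubicin value of 1.06 against vehicle that did not pass the test, and in untreated A431 it stood at 0.3, 0.11 and 0.187 CPM.

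The calls among sterol genes were falls with each drug. Of 27 expressed members 9 fell and 0 rose with doxorubicin (median -0.88), 4 fell and 0 rose with 5-FU (median -0.34; at an unadjusted p under 0.05, 0 lay higher with doxorubicin and 2 with 5-FU, and DESeq2 called 0), and 5 were lower with doxorubicin in the test of the difference. The shares that fell were 33.3% with doxorubicin, against 15.4% of all genes, and 14.8% with 5-FU, against 6.98%. In the difference 18.5% were lower with doxorubicin, against 13% of all genes. With both drugs 2 members fell. INSIG1, the sterol-sensing retention protein, fell with both drugs, from 125, 129 and 134 to 67.2, 68.3 and 66.4 CPM and from 192, 166 and 164 to 63.4, 63.2 and 65.7 CPM. MVK, mevalonate kinase, fell by 2.69 with doxorubicin and had a value of -0.86 with 5-FU. SREBF2, which encodes SREBP2, fell with 5-FU (-1.06) and had a value of -0.998 with doxorubicin, short of the threshold. Against vehicle-treated A431 17 members fell with doxorubicin, and 11 were lower in the test of the difference.

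Ribosomal protein genes had the most falls with doxorubicin, and part of them passed the test of the difference. Of 78 expressed cytosolic ribosomal protein genes 41 fell with doxorubicin (52.6%, against 15.4% of all genes, median -1.01). With 5-FU 0 changed by edgeR (median -0.23). In the test of the difference 16 were lower with doxorubicin (20.5%, against 13%). At an unadjusted p under 0.05, 6 ribosomal protein genes lay higher and 35 lower with 5-FU, and DESeq2 called 0. RPS16 went from 1012, 1017 and 1082 to 236, 239 and 243 CPM with doxorubicin and stood at 778, 977 and 951 CPM untreated and 764, 824 and 777 CPM with 5-FU. The count of falls was 16 with library size alone and 52 with offsets for GC content and length, and without untreated MDA-MB-231 replicate 1 the number in the test of the difference was 27. Reads of ribosomal protein genes may be shared with processed pseudogenes. Of 39 ribosome biogenesis genes 7 fell with doxorubicin (17.9%, near the 15.4% of all genes, median -0.44), among them the nucleolar methyltransferase FBL (-1.55). With 5-FU 0 were called by edgeR or DESeq2 (median 0.27), where 23 lay higher and 5 lower at an unadjusted p under 0.05. In the test of the difference 12 were lower with doxorubicin (30.8%, against 13% of all genes). The 7 falls were 4 with DESeq2 and 2 with library size alone. Of 75 respiratory chain genes 18 fell (24%, against 15.4% of all genes) and 3 rose (4%, against 15.6%) with doxorubicin (median -0.60). With 5-FU 2 rose (2.67%, against 5.61%), or 1 without untreated MDA-MB-231 replicate 1. The 5-FU median was -0.12, and 0.01 with library size alone. The 18 falls were 12 with DESeq2 and 4 with library size alone. ATP5F1D, a subunit of ATP synthase, went from 213, 209.8 and 228 to 25.9, 26.6 and 27.5 CPM with doxorubicin and from 51.9, 89.3 and 89.1 to 47.9, 47.9 and 43.4 CPM with 5-FU. In the difference 11 respiratory genes were lower with doxorubicin (14.7%, near the 13% of all genes) and 2 higher (2.67%, against 17%). The number lower was 17 without untreated MDA-MB-231 replicate 1, 21 with offsets for GC content and length, and 7 against vehicle.

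Heat shock and antioxidant genes had more falls than rises with doxorubicin. Of 19 expressed heat shock genes 6 fell (31.6%, against 15.4% of all genes) and 1 rose (5.26%, against 15.6%) with doxorubicin. With 5-FU 1 rose (5.26%, near 5.61%), and the rise was in the co-chaperone gene DNAJB4 for both drugs. In the test of the difference 6 were lower with doxorubicin (31.6%, against 13%). With library size alone 2 fell with doxorubicin, and the value of DNAJB4 was 0.86 against vehicle, under the threshold. HSPD1, the mitochondrial chaperonin, went from 1012, 1044 and 1033 to 346, 369.6 and 359 CPM with doxorubicin and stood at 541, 433 and 430.1 and 499, 497 and 528 CPM in MDA-MB-231. Of 21 endoplasmic reticulum stress genes 3 rose (14.3%, near the 15.6% of all genes) and 1 fell with doxorubicin. With 5-FU 1 rose, the sensor kinase ERN1, which rose with both (1.21 and 2.03). Its doxorubicin value was 0.90 against vehicle, under the threshold. Against vehicle 1 of the 21 rose and 2 fell with doxorubicin. Of 21 NRF2 targets 7 fell (33.3%, against 15.4% of all genes) and 2 rose (9.52%, against 15.6%) with doxorubicin. The doxorubicin median was -0.32, and 0.03 with library size alone. With 5-FU 4 rose (19%, against 5.61%). In the test of the difference 6 were lower with doxorubicin (28.6%, against 13%). TALDO1, transaldolase, fell by 2.22 with doxorubicin, and AKR1B10, an aldo-keto reductase, rose with both, from 1.56, 1.32 and 1.31 to 7.07, 8.8 and 7.35 CPM and from 0.73, 0.183 and 0.44 to 1.76, 1.46 and 0.756 CPM.

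Part of the matrix protease genes rose with each drug. Of 17 expressed protease and plasminogen genes 8 rose (47.1%, against 15.6% of all genes) and 3 fell (17.6%, near 15.4%) with doxorubicin (median 0.84). With 5-FU 5 rose (29.4%, against 5.61%) and 2 fell (11.8%, against 6.98%), at a median of 0.28. The 4 shared rises were MMP1, MMP10, MMP13 and SERPINB2, the last of them with a doxorubicin value of -0.35 against vehicle. MMP1, interstitial collagenase, went from 1.08, 1.1 and 0.685 to 4.29, 4.86 and 5.33 CPM with doxorubicin and from 29.8, 26.1 and 27.2 to 293, 291 and 306 CPM with 5-FU, log2 fold changes of 2.25 ± 0.29 and 3.43 ± 0.067, with a larger response for 5-FU (-1.10, adjusted p = 0.00051), which was -0.85 and under the threshold against vehicle. MMP10 stayed near the floor, at 0.24, 0.0552 and 0.0622 and 0.707, 0.716 and 1.35 CPM in A431 and 0.313, 0.0917 and 0.196 and 1.45, 0.754 and 1.56 CPM in MDA-MB-231. TIMP3, a protease inhibitor, fell with both, from 295, 285 and 302 to 143, 137 and 140.2 CPM and from 836, 901 and 905 to 292, 285 and 293 CPM. TIMP2 rose with doxorubicin from 168, 167 and 166 to 686, 646 and 689 CPM, and had a value of -0.54 with 5-FU. MMP9, a gelatinase, was called in opposite directions (-1.34 and 1.85).

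Of 35 expressed collagen, laminin and integrin genes 9 fell (25.7%, against 15.4% of all genes) and 7 rose (20%, against 15.6%) with doxorubicin. With 5-FU 13 fell (37.1%, against 6.98%) and 3 rose (8.57%, against 5.61%). For each drug 19 were not called, and 7 fell with both. In the test of the difference 12 were higher (34.3%, against 17%) and 4 lower (11.4%, near 13%) with doxorubicin. Those 7 included ITGB4, the hemidesmosome integrin, from 1025, 923 and 1059.6 to 119, 119 and 125 CPM and from 114, 271 and 303 to 61.7, 55.9 and 55.2 CPM, and LAMA5, a laminin chain, from 966, 795 and 694 to 127, 127 and 128 CPM and from 178, 524 and 652 to 129.8, 100 and 87 CPM. In both genes untreated MDA-MB-231 replicate 1 was the lowest of its group, yet above the 5-FU libraries. FN1, fibronectin, rose with doxorubicin from 178, 177 and 190.4 to 695, 680.3 and 695 CPM and had a value of -0.97 with 5-FU. Against vehicle 14 members fell and 8 rose with doxorubicin. YAP and TEAD targets had 4 rises (23.5%, against 15.6% of all genes) and 1 fall (5.88%, against 15.4%) of 17 with doxorubicin. With 5-FU they had 5 falls (29.4%, against 6.98%) and no rise. In the test of the difference 8 were higher with doxorubicin (47.1%, against 17%). ANKRD1, a nuclear cofactor, went from 0.42, 0.717 and 1.06 to 64.3, 72.6 and 74.3 CPM with doxorubicin and from 612, 430.9 and 378 to 132, 134 and 136 CPM with 5-FU. ANKRD1 and CCN2 were the members called in opposite directions. Against vehicle the list had 2 rises and 1 fall, a median of -0.10 in place of 0.18, and 5 members in the test of the difference.

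Epidermal genes were compared for 18 of 40 listed, since most were below the filter in MDA-MB-231. In A431 5 fell (27.8%, against 15.4% of all genes) and 2 rose (11.1%, against 15.6%) with doxorubicin. In MDA-MB-231 6 rose (33.3%, against 5.61%) and 2 fell (11.1%, against 6.98%) with 5-FU. KRT15, a basal keratin, fell from 1659, 1621 and 1531 to 258, 292 and 272 CPM with doxorubicin, and PKP3, a desmosome plaque protein, from 476, 430.6 and 484 to 52.1, 50.5 and 52.9 CPM. KRT17, a stress-induced keratin, rose in both, from 183, 166 and 195 to 1102, 1099.9 and 1108 CPM and from 0.209, 0.321 and 0.196 to 1.72, 0.801 and 0.897 CPM. The rises in MDA-MB-231 were near the floor and uneven. KRT5, at 3463, 3476 and 3798 CPM in untreated A431, stood at 0.104, 0.0917 and 0.0489 CPM in untreated MDA-MB-231 and at 3.89, 0.801 and 1.18 CPM with 5-FU. KRT14 and KRT6A were also highest in 5-FU replicate 1 (2.26, 0.424 and 0.331 and 1.9, 0.424 and 0.378 CPM across the 3 libraries each). Leaving out 5-FU replicate 1 gave log2 fold changes of 3.53 for KRT5 and 1.79 for KRT17 in place of 4.51 and 2.21, both still past the test, and whether reads of A431 libraries add to these levels was not tested. S100A8 and S100A9, calcium-binding alarmins, had no count in untreated MDA-MB-231 and 25 and 31 counts with 5-FU, at least 7.94-fold and 9.84-fold higher, while in A431 S100A9 fell by 1.13, and by 0.76 against vehicle, under the threshold. SERPINB2, a plasminogen inhibitor of keratinocytes, rose in A431 from 81.4, 88.9 and 99.6 to 403, 421 and 405 CPM and in MDA-MB-231 from 0.0522, 0.229 and 0.0978 to 1.81, 1.13 and 1.32 CPM, and its doxorubicin value against vehicle was -0.35.

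Of 34 expressed lysosomal genes 6 rose and 2 fell with doxorubicin (median 0.45), and the 17.6% that rose lay near the 15.6% of all genes. With 5-FU 1 rose (2.94%, against 5.61%) and 2 fell (5.88%, near 6.98%), at a median of 0.00. In the test of the difference 10 were higher (29.4%, against 17%) and 1 lower (2.94%, against 13%) with doxorubicin. NEU1, a sialidase, went from 76.4, 70 and 77.5 to 388, 379 and 392 CPM with doxorubicin and from 104, 102 and 103 to 114, 119.8 and 113 CPM with 5-FU. CTSA, the protective protein of that enzyme, fell with 5-FU (-1.05) and had a value of 0.63 with doxorubicin, and SQSTM1, an autophagy receptor, rose with 5-FU from 202, 249 and 255 to 490.4, 491 and 464 CPM and stood at 0.06 with doxorubicin. It was the 1 rise with 5-FU, and without untreated MDA-MB-231 replicate 1 its value was 0.95, under the threshold. Of 59 listed replication-dependent histone genes 15 were expressed. With doxorubicin 11 rose (73.3%, against 15.6% of all genes) and 3 fell (20%, against 15.4%), at a median of 1.62. With 5-FU 1 rose (6.67%, near 5.61%) and 3 fell (20%, against 6.98%), at a median of -0.44. In the test of the difference 9 were higher (60%, against 17%) and 1 lower (6.67%, against 13%) with doxorubicin. Without untreated MDA-MB-231 replicate 1, 1 fell with 5-FU, and the value of H2AC20 went from -1.26 to -0.99. H4C8 went from 3.12, 2.48 and 1.68 to 52.6, 49.7 and 55.8 CPM with doxorubicin and stood at 4.64, 2.52 and 1.91 and 3.08, 3.39 and 3.54 CPM in MDA-MB-231. Histone genes are near-identical and their reads could be divided among copies, so single members are uncertain.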

How the data were processed

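RNA of A431 and MDA-MB-231 cells was sequenced as unstranded paired-end libraries. According to the labels and processing notes, reads were trimmed with Trim Galore 0.3.7 and aligned to hg19 with STAR 2.5.3a, and the authors deposited raw counts per gene in 1 table with 24566 rows. The counting tool and annotation are not given in the sources used here. Genes were named by Entrez ID for 24422 rows, and 222 rows shared an Ensembl ID with an earlier row.

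The counts were fitted with edgeR 4.0.16 (R 4.3.3, TMM factors, filterByExpr, quasi-likelihood test, Benjamini-Hochberg adjustment) in 1 fit per line with all its groups, and the difference of the responses in 1 fit over 12 libraries. A call needed an adjusted p under 0.05 and a log2 fold change beyond 1. Scripts were tested on simulated data. DESeq2 1.42.0, other scalings, filters, controls, a replicate block, offsets and left-out libraries served as alternatives. Levels are CPM with TMM factors, and ± gives the SE. The genes named were the 8 shared rises and falls and the 6 opposite changes of each kind with the largest smaller change, the 6 firmest differences each way, 2 called members per list and response, and a fixed set. Others described were chosen after their values were seen. The members and lists were chosen with earlier results of these data known. Some members of the lists are counted but not reported here by name.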

Additional observations from a re-analysis of the deposited data

Results flagged for a closer look

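The difference between the responses was flagged as a whole, since the test of the difference itself was passed by 2267 genes that were higher with doxorubicin and 1733 that were lower, and the drug and the cell line cannot be told apart in it. Of the genes named for it, CCN2 (difference 4.73 on the log2 scale), IFI6 (4.53), MX2 (6.16), CPA4 (3.71), PAPSS2 (3.90) and TMEM158 (3.76) were higher with doxorubicin. EDF1 (-4.23), METTL26 (-5.16), NUDT14 (-5.44), PHPT1 (-4.15), IL1A (-4.71) and FAF1 (-2.53) were lower. With 3 libraries a group, single libraries were not tested as outliers.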

How the results depend on the processing

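Counts of shared and opposite genes kept within 1.5 times of the values above under DESeq2, RLE factors and 1 row per Ensembl ID. With library size alone 1157 genes fell with doxorubicin, 527 rose with both and 158 fell with both. Without a filter 4766 genes rose with doxorubicin and the rho was 0.181. At an average of at least 1 CPM, 195 rose with both, 97 and 31 were opposite, and the rho was 0.279. By adjusted p alone, 4770 rose and 6002 fell with doxorubicin, 3845 rose and 3845 fell with 5-FU, 1842 rose and 2246 fell with both, 982 and 1217 were opposite, and 3966 and 4360 differed. The rho was 0.263 with the compared groups alone, 0.19 against vehicle, 0.231 with offsets for GC content and length, and 0.23 to 0.256 with 1 library left out. Against vehicle the doxorubicin value turned to -1.898 for FOSB, 0.238 for HSPA6, -2.602 for CXCL8, -1.555 for ATF3, -1.244 for EGR2, -1.887 for TNFAIP3 and -0.349 for SERPINB2, and the difference to -1.451 for PTGS2 and -2.8 for ATF3. The cause of these shifts was not tested.

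Replicate numbers did not pair the libraries, since deviations of same-numbered libraries correlated at -0.152 to 0.0584. With the replicate block 2079 genes rose and 2065 fell with doxorubicin, 749 and 910 with 5-FU, 330 rose and 280 fell with both, and the rho was 0.245, or 0.23 with offsets as well.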
